A study of Mus musculus with 6 samples.

Results

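Hes1, Hes5, Hey1, Hey2, Heyl and Nrarp are genes by whose transcription Notch signalling is commonly read, and Hes6 is a relative of the Hes genes. All 7 were found on the array, out of 22907 named genes, through 9 non-control probes whose annotated transcript belongs to one of them. Hes5 and Hes6 have 2 probes each and the other 5 genes have 1. Hey1, Hes1 and Hes6 gave signal above background and could be tested, whereas Hes5, Hey2, Heyl and Nrarp were well above background on no array of either group.

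The cells were a mouse glioblastoma stem cell line raised from tumours that a Sleeping Beauty (SB) transposon had induced in mouse brain. They grew as neurospheres, floating clusters fed with EGF and bFGF (10 ng/ml) without serum. Control cells carried a lentiviral non-target shRNA (NT) and knockdown cells a lentiviral shRNA against Ggct (mGGCTsh3), with 3 one-colour Agilent arrays in each group. Each of 3 dates in the sample titles is shared by 1 control and 1 knockdown array, called date 1, 2 and 3 below. The study is of 1 line (5B in the titles) and 1 Ggct hairpin, so other effects of that hairpin cannot be told apart from loss of Ggct, the enzyme gamma-glutamylcyclotransferase, and in bulk RNA fewer expressing cells cannot be told apart from less RNA per cell. The series title ties Ggct to Notch1 levels, and the array comparison asks how transcription changes when Ggct is suppressed.

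When a Notch receptor binds a ligand on a neighbouring cell, its intracellular part is cut free by gamma-secretase, enters the nucleus and joins the DNA-binding protein RBPJ to switch on target genes. Hes1, Hes5, Hey1, Hey2 and Heyl encode basic helix-loop-helix repressors. Of these, Hes1, Hes5, Hey1 and Hey2 hold back neuronal differentiation and so keep neural stem cells undifferentiated. Nrarp encodes an ankyrin-repeat protein that destabilises the Notch intracellular part and limits the signal. Hes6 resembles the repressors in structure but antagonises Hes1 and promotes neuronal differentiation, so its direction is not a reading of Notch activity.

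RBPJ recognises the core letters TGGGAA. RefSeq promoter windows (GRCm38.p6, 300 bases each, 250 before and 50 after a start) were found for 4 of the 7 genes, 5 windows in all since Hes6 has 2. They are shown for Hes5 and Hey2, whose windows hold the core, and for the Hes6 window nearer to the gene's 3' end, as a member that was measured to rise. Each runs 5' to 3' on the gene's strand up to the start, or to the end of a match that crosses it, with TGGGAA on either strand in capitals. The windows are chr4:154960673-154960922 on the plus strand for Hes5, chr10:30842781-30843033 on the minus strand for Hey2 and chr1:91413223-91413472 on the minus strand for Hes6.
Hes5: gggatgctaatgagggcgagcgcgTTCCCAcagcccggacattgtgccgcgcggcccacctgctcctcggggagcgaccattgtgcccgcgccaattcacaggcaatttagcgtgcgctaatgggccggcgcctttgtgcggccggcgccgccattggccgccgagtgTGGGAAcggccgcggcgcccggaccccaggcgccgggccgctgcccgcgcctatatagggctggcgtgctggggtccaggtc
Hey2: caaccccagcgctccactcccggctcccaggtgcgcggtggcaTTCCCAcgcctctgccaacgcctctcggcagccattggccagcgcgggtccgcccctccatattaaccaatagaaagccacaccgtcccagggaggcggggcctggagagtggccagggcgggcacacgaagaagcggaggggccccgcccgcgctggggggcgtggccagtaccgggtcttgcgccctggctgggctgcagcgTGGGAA
Hes6: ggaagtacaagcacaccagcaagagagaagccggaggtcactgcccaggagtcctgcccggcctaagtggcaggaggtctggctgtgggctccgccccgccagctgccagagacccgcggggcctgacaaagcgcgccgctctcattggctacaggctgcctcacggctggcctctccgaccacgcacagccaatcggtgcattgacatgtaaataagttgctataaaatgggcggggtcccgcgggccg

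Hes5 and Hey2 each held 2 matches to TGGGAA, on opposite strands. They began 226 and 82 bases before the start in Hes5, and 207 and 3 bases before it in Hey2. All 4 also fitted the longer form GTGGGAA, which contains the core. The Nrarp window and both Hes6 windows held none. Over all 32851 promoter windows, 25.6% held TGGGAA on either strand and 3.79% held it at least 2 times, while 6.38% held GTGGGAA and 0.256% held it at least 2 times. The N-box CACNAG, a site bound by Hes repressors, was searched on both strands too and occurred in 42.5% of all windows, with 11.3% holding it at least 2 times. It had 2 matches in the Hes6 window shown, of which 1 begins after the start, at window base 266, and so past the printed stretch. It also had 2 in the Nrarp window. The other windows had none, so no N-box overlapped an RBPJ match. A match is a run of letters and does not show that a factor was bound in these cells.

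Values are log2 of the background-corrected signal after each array's own 75th percentile was subtracted, so 0 marks a signal equal to that percentile. Probes differ in how well they hybridise, so levels are compared between arrays for a probe and never between genes. Between 54.5% and 56.8% of probes were well above background on an array, and 0 spots were saturated. Ggct itself fell to 12.7% of control (limma adjusted p = 0.00314), from a mean of 3.58 ± 0.23 to 0.61 ± 0.35 (SD, n = 3 each). Notch1 (0.09 ± 0.22, SE; limma adjusted p = 0.851) and Jun (-0.36 ± 0.26, SE; limma adjusted p = 0.433), the other genes of the series title, did not pass. Across 14151 genes tested, 7.41% passed an adjusted p of 0.05 in limma, made up of 2.84% that were lower in the knockdown and 4.57% that were higher. Of the 3 genes of this family that could be tested, Hey1 fell, Hes6 rose and Hes1 did not pass, which is 2 of 3 against that background of 7.41%. With so few genes the share describes them and is not evidence for the family.

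Hey1, the repressor of the Hairy/E(spl)-related group with a YRPW motif, changed most among the members that could be tested. Its log2 signal was 1.68, 2.84 and 2.33 on the control arrays of dates 1, 2 and 3, and 0.31, 1.26 and 0.64 on the knockdown arrays. Every knockdown array lay below every control array, with a gap of 0.41 between the highest knockdown and the lowest control array, and 32.4% of all genes tested had groups that did not overlap. Hey1 fell to 34.3% of control, a log2 fold change of -1.54 ± 0.33 (SE, 95% interval -2.32 to -0.77, limma adjusted p = 0.0374). In order of log2 fold change it ranked 21 of the 14151 genes from the most negative.

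The level of Hey1 moved with the date as well as with the hairpin. In both groups the date 1 array was the lowest and the date 2 array the highest, and the control arrays spanned 1.16 and the knockdown arrays 0.96 log2 units. Its SD within groups was 0.54, against a median of 0.19 over all genes, and 3.84% of genes had a larger one. Within dates the knockdown was 38.6%, 33.6% and 31.0% of control at dates 1, 2 and 3, differences of -1.37, -1.57 and -1.69 with an SD of 0.16. With the date as a replicate block the standard error was 0.13 in place of 0.33, and the limma adjusted p was 0.0170. The fall was thus of like size at each date while the level around it shifted.

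**Figure D1:**
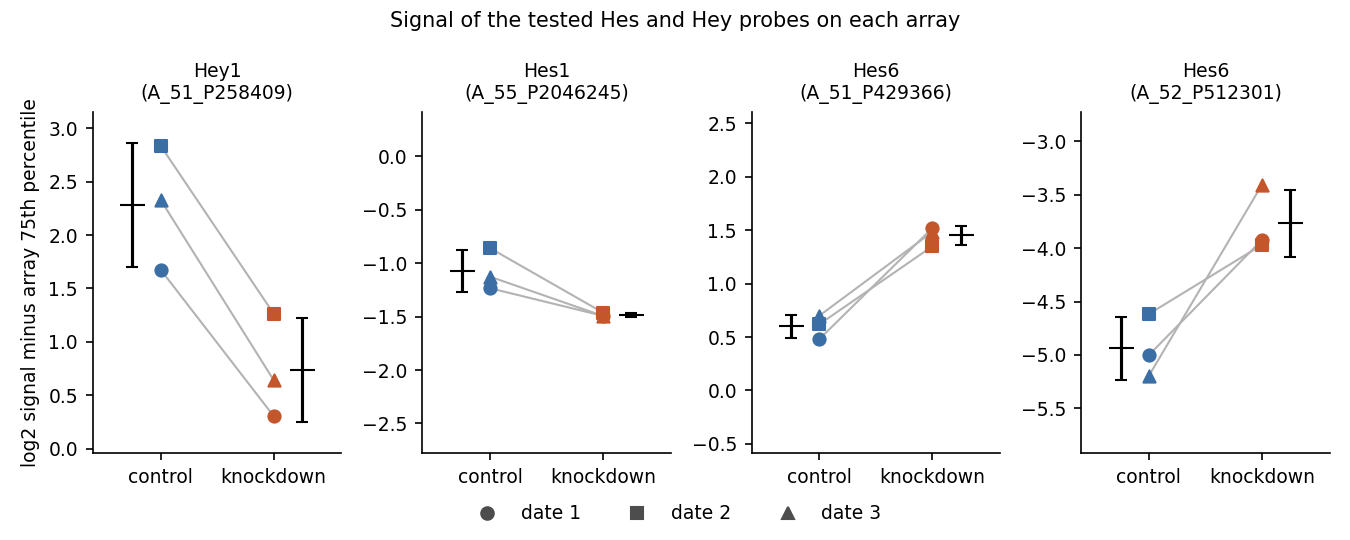
Log2 signal minus the array's 75th percentile (vertical axis) of the 4 member probes above background, on control and knockdown arrays. Marker shapes give the date, grey lines join arrays of a date, and black bars give mean ± SD (n = 3). Each panel spans the same number of log2 units. Hey1 falls in parallel at all 3 dates, from control values of 1.68 to 2.84 to knockdown values of 0.31 to 1.26. Hes6 rises by its brighter probe, and its dim probe reads higher on the knockdown arrays. With probes fitted one by one, neither the dim Hes6 probe nor the Hey1 probe passed the adjusted threshold.

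Hes1, a repressor that Notch induces in neural progenitors, was lower on every knockdown array but did not pass the threshold. Its log2 signal was -1.23, -0.86 and -1.13 on the control arrays of dates 1, 2 and 3, and -1.49, -1.46 and -1.49 on the knockdown arrays. The knockdown arrays lay within 0.03 log2 units of each other and the control arrays within 0.38. The groups did not overlap, as for 32.4% of all genes tested. Hes1 stood at 75.2% of control, -0.41 ± 0.13 on the log2 scale (SE), and 22.2% of genes had a larger absolute change. The unadjusted limma p of Hes1 was 0.0154, where 3507 of all 14151 genes stood below 0.05, and its limma adjusted p was 0.105. The 95% interval of the difference runs from 60.8% to 93.1% of control. By date it was 83.5%, 65.7% and 77.5% of control. With the date as a replicate block the limma adjusted p was 0.143.

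Hes6, the antagonist of Hes1, went the other way. Its brighter probe read 0.48, 0.62 and 0.70 on the control arrays of dates 1, 2 and 3, and 1.52, 1.35 and 1.49 on the knockdown arrays. The lowest knockdown array lay 0.65 log2 units above the highest control array. Hes6 rose 1.81-fold, a log2 fold change of 0.85 ± 0.12 (SE, 95% interval 0.57 to 1.13, limma adjusted p = 0.0137). The knockdown was 206%, 166% and 172% of control at the 3 dates. Its SD within groups, 0.10, was small, with 85.9% of genes having a larger one, and the limma adjusted p was 0.0388 with the date as a replicate block.

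A second Hes6 probe, far dimmer, moved in the same direction. Its processed signal was 16.8, 21.7 and 23.6 intensity units on the control arrays, of which 2 were well above background, and 50.3, 34.2 and 56.6 on the knockdown arrays, of which all 3 were. That is a log2 fold change of 1.17 ± 0.22 (SE) when each of the 31804 probes kept was fitted by itself. The limma adjusted p over those probes was 0.0531 for the dim probe, 0.0397 for the bright Hes6 probe, 0.180 for the Hes1 probe and 0.0765 for the Hey1 probe, with 1.75% of all probes past 0.05. The dim probe and Hey1 did not pass in that fit, while the sizes of the differences are those of the probes themselves.

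Hes5, Hey2, Heyl and Nrarp gave no signal that could be told from background. Hes5 is a main Notch effector of neural stem cells, Hey2 and Heyl are known from blood vessels and heart, and Nrarp feeds back on the receptor. Their 5 probes read 2.78 to 4.72 intensity units over the 6 arrays, whereas the lowest signal that the scanner software called well above background was 13.6 to 17.7 units. Each of the 5 probes was well above background on 0 of 3 control and 0 of 3 knockdown arrays. By the software's less strict call of signal above local background, 1 Hes5 probe passed on 1 control array, date 3 at 4.72 units, and the other Hes5 probe passed on none. No fold is given for these genes, since both groups were below background. How much transcript could go undetected by these probes is not known, so the genes were not detectable here, which does not show that they were silent.

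**Figure D2:**
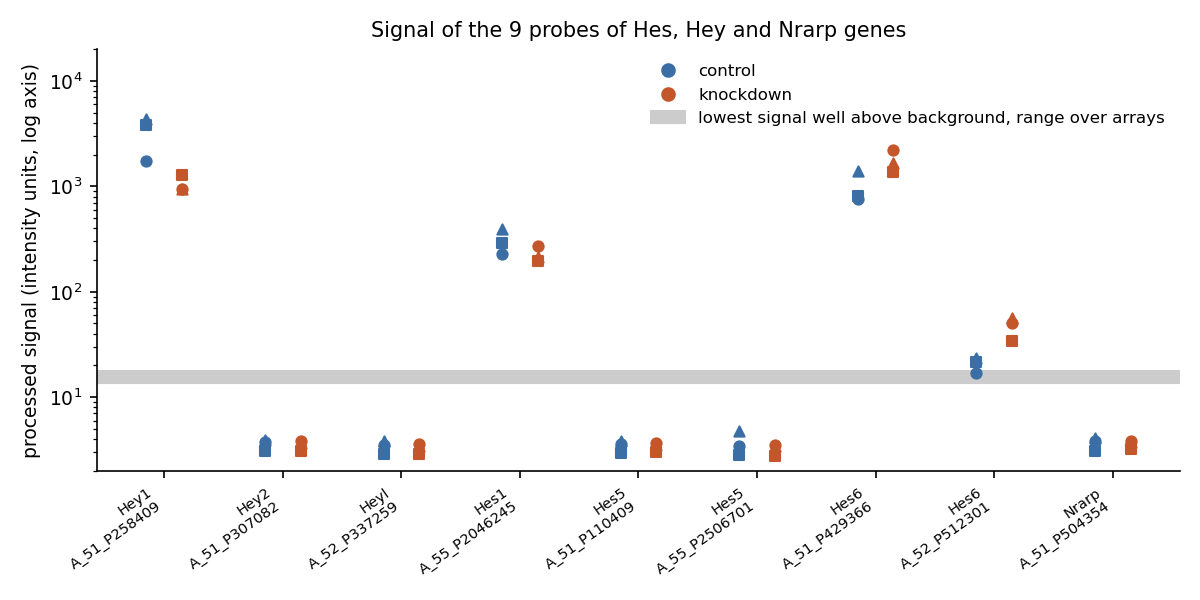
Processed signal of each of the 9 member probes (vertical log axis, intensity units before scaling between arrays) on control and knockdown arrays, with marker shapes for dates 1 (circle), 2 (square) and 3 (triangle). The grey band spans the lowest signal well above background, 13.6 to 17.7 units over the arrays; the probes of Hey2, Heyl, Hes5 and Nrarp all lie under it, at 2.78 to 4.72 units, and heights of different probes are not comparable.

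For Hey1 and Hes6, which spanned more than 1 log2 unit over the arrays, profiles over the 6 arrays were compared with those of 12477 other genes. These were well above background on all arrays, with clone, locus and predicted gene symbols left out. Likeness was the root mean square distance between profiles, each centred on its own mean. The nearest to Hey1 was the semaphorin gene Sema7a, at 0.13 log2 units. Next came the desmosome gene Pkp1 (0.28), the small GTPase gene Rab15 (0.30), Wdr63 (0.30) and the natriuretic peptide gene Nppb (0.30). Sema7a was thus well ahead of the next gene. The nearest to Hes6 were the gluconokinase gene Idnk (0.06), the interferon regulatory factor gene Irf1 (0.06), the immunoproteasome subunit gene Psmb10 (0.06), Zfp607b (0.06) and Ypel1 (0.07). The 6 arrays share 2 groups and 3 dates, so these distances are a description. Hes1 spanned 0.64 log2 units and was not compared.

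The rest of the Notch pathway was taken from 8 lists holding 98 genes besides these, of which 79 could be tested. 5 rose, 2 fell and 72 did not pass, so 8.86% passed, near the 7.41% of all genes. The lists below give each step, and all genes together had a median log2 fold change of 0.02. At an unadjusted limma p below 0.05 stood 3507 of all 14151 genes. Higher and lower list genes at that cutoff numbered 0 and 2 for receptors and ligands, and 4 and 2 for modification and turnover. Cleavage had 1 and 2, the nuclear complex 0 and 1, and other Hes relatives with Groucho partners 4 and 2. Genes repressed by Hes factors had 1 and 0, direct Notch targets 0 and 3, and E and Id proteins 4 and 0.

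Among receptors and ligands, 2 of 8 tested genes fell and 0 rose (median -0.05). Dll4, a ligand best known from growing vessels, had a mean log2 signal of -3.72 ± 0.44 in control cells and -5.26 ± 0.37 in knockdown cells (SD, n = 3 each), and was above background on 3 control arrays and 1 knockdown array. It fell, with a limma adjusted p of 0.0200. The fitted size of -1.54 on the log2 scale is uncertain, since Dll4 was not well above background on 2 of the 3 knockdown arrays. The receptor gene Notch4 went from 0.75 ± 0.16 to 0.05 ± 0.04 (SD, n = 3 each), and passed with a limma adjusted p of 0.0231, but not in the fit with dates as a replicate block (0.0572). Notch1 (0.09), Notch2 (0.05) and Notch3 (0.11) had log2 fold changes near 0, and Jag1 (-0.41), Dll1 (-0.04) and Dlk2 (-0.06) did not pass either. The ligand genes Dll3 and Jag2 were above background on no array.

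Of 16 tested genes that modify or turn over ligand and receptor, 1 rose and 0 fell (median 0.09). This was Dtx3l, a ubiquitin ligase of the Deltex family, 2.08-fold higher (limma adjusted p = 0.0186). Of 9 tested genes of receptor cleavage, 1 rose and 0 fell (median -0.16), the gamma-secretase subunit gene Psenen, 1.41-fold higher (limma adjusted p = 0.0411, and 0.0896 where dates were a replicate block). The sheddase genes Adam10 (-0.51) and Adam17 (-0.61), whose proteins cut the receptor ahead of gamma-secretase, did not pass. In the nuclear complex and its corepressors 0 of 13 passed in limma, and 1, Hdac1 (-0.78), had an unadjusted p below 0.05. Rbpj itself stood at 0.04 ± 0.13 (SE).

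Of 9 tested genes among other Hes relatives and the Groucho family, 1 rose and 0 fell (median 0.34). Some Groucho proteins are corepressors that Hes proteins recruit. Tle6, a Groucho-related gene, was 2.14-fold higher (limma adjusted p = 0.0171). Hes7 (0.19), Hes2 (0.34) and Bhlhe40 (-0.85), other repressors of this class, did not pass, and Hes3 and Helt were above background on no array. Among E proteins and the Id proteins, which bind basic helix-loop-helix factors and keep them off DNA, 2 of 7 rose and 0 fell (median 0.52). Id3 rose 2.61-fold (limma adjusted p = 0.0162) and Id2 2.23-fold (limma adjusted p = 0.0439, and 0.0734 where dates were a replicate block).

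Genes downstream of Hes and Notch did not pass. Of 13 genes that Hes factors repress, such as the proneural genes, 5 could be tested and 0 passed in limma, with 1 higher at an unadjusted p below 0.05, Gadd45g (0.44), and a median of 0.23. Neurog2, Neurod1, Atoh1 and 3 others of that list were above background on no array. Of 12 tested genes reported as direct Notch targets, 0 passed in limma. At an unadjusted p below 0.05, 3 were lower, Nes (-0.64), Bcl2 (-0.50) and Erbb2 (-0.39), where 3507 of all 14151 genes stood below that cutoff. The median of the 12 was -0.30, with Myc at -0.002 and Ccnd1 at -0.15.

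**Figure D3:**
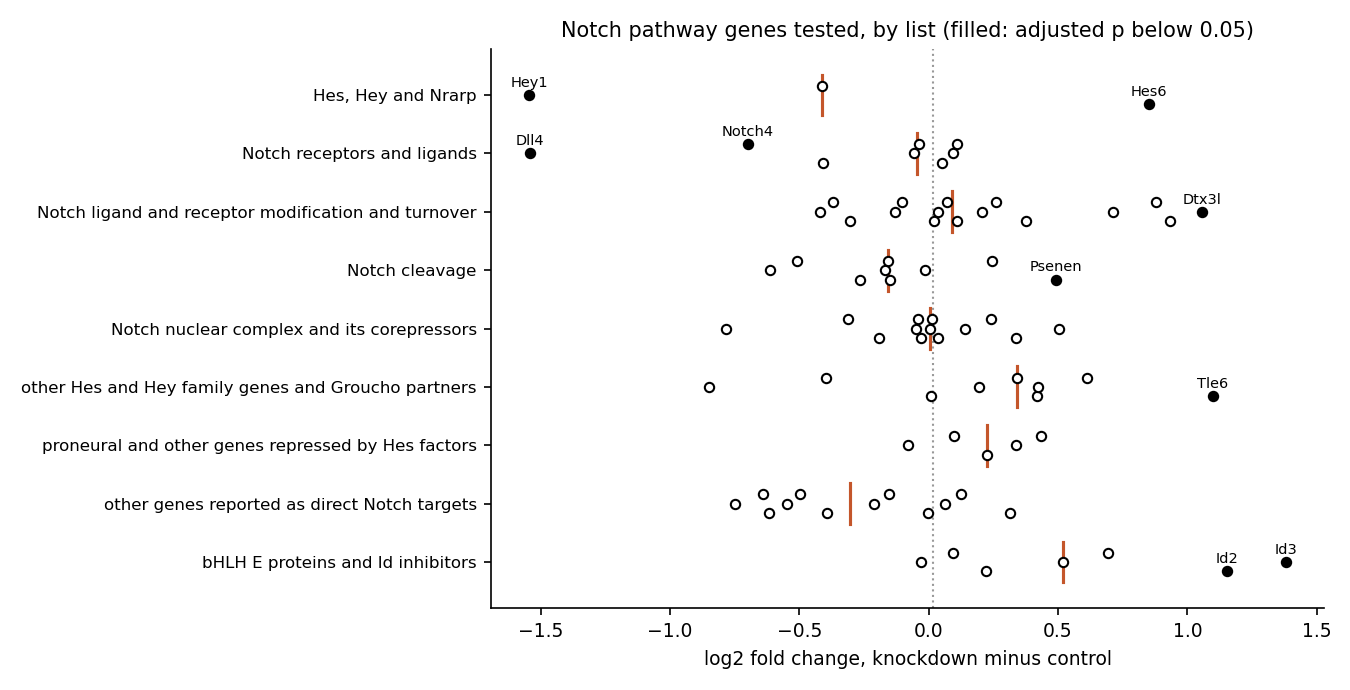
Log2 fold change, knockdown minus control (horizontal axis), of each tested gene of the Hes, Hey and Nrarp group and of the 8 Notch pathway lists, 1 point a gene. Filled and named points have a limma adjusted p below 0.05, orange bars are list medians and the dotted line is the median of all genes, 0.02. Hey1 lies at -1.54, and so does Dll4. The size for Dll4 is uncertain because it was not well above background on 2 of the 3 knockdown arrays.

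Of 10 neural and glioma stem cell markers, 8 were above background on all arrays, among them Sox2, Nes, Msi1 and Fabp7, while Gfap was above it on 2 of 3 arrays in each group and Olig2 on no array. Their summed linear level, in multiples of each array's 75th percentile signal, was 233 to 271 in control and 218 to 269 in knockdown, with 1 marker, Slc1a3, higher. Most of that sum came from the probe of Vim, which fibroblasts express too, so it says little about the other markers. Of these, Nes (-0.64) and Sox2 (-0.34) were lower and Prom1 (1.03) higher at an unadjusted limma p below 0.05, but did not pass. Endothelial cells express Hey1, Dll4 and Notch4 strongly, so their markers stand beside those falls. Of 10 endothelial markers 3 were tested, Flt1, Pecam1 and Cdh5, while Kdr, Cldn5, Tie1 and Vwf were above background on no array. Their summed level was 6.99 to 8.66 in control and 3.32 to 4.53 in knockdown, the fall being that of Flt1, 0.499 times its control level (limma adjusted p = 0.0187), with Pecam1 at -0.06 and Cdh5 at 0.15 on the log2 scale. Of 9 mural cell markers 4 were tested and 0 passed in limma (0 also at an unadjusted p below 0.05). Their sums, mostly from the probe of Acta2, were 16.5 to 25.7 in control and 16.6 to 24.7 in knockdown. Rgs5, Kcnj8, Abcc9 and Myh11 were above background on no array. The part of such cells in the fall of Hey1 was not tested.

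The microglia and macrophage list had 3 of 8 markers tested, summing to 11.3 to 17.7 in control and 11.3 to 14.3 in knockdown. The neuron list had 4 of 7 tested, with sums of 7.79 to 12.1 and 7.40 to 9.34. Most of the first sum came from the probe of Itgam and most of the second from that of Snap25. Neither sum thus says much about the other markers of its list. Ptprc, Aif1, Cx3cr1 and P2ry12 of the first list, and Rbfox3, Dcx and Stmn2 of the second, were above background on no array. Oligodendrocyte markers had 3 of 6 tested with sums of 0.410 to 0.494 and 0.525 to 0.667, Mbp rising, and Cldn11 above background on no array. Fibroblast markers had 5 of 6 tested with sums of 78.5 to 98.8 and 78.9 to 112.9, Pdgfra falling, and Lum above background on no array.

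The call of Hey1 rested on all the arrays more than its direction did. Leaving out single arrays, Hey1 had log2 fold changes of -1.85 to -1.27 and unadjusted limma p below 0.05 in 6 of 6 cases, but passed the adjusted threshold in 1, the case without knockdown replicate 2 (date 2). Its limma adjusted p was 0.0608, 0.112 and 0.0928 without control replicates 1, 2 and 3, 0.0643 without knockdown replicate 1 and 0.114 without knockdown replicate 3. Hes6 ranged from 0.79 to 0.90 and passed in 3 of 6, the limma adjusted p being 0.0608, 0.0621 and 0.0605, and so not past, without control replicate 1, control replicate 2 and knockdown replicate 3. Knockdown replicate 1 scored 46.6 on the component that held most of the variance over genes (55.2%), where knockdown replicates 2 and 3 scored 9.13 and 15.4, and without it Hey1 was at -1.33 (limma adjusted p = 0.0643) and Hes6 at 0.82 (limma adjusted p = 0.0181). In all 20 alternative settings Hey1 and Hes1 stayed below 0 and Hes6 above it.

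**Figure D4:**
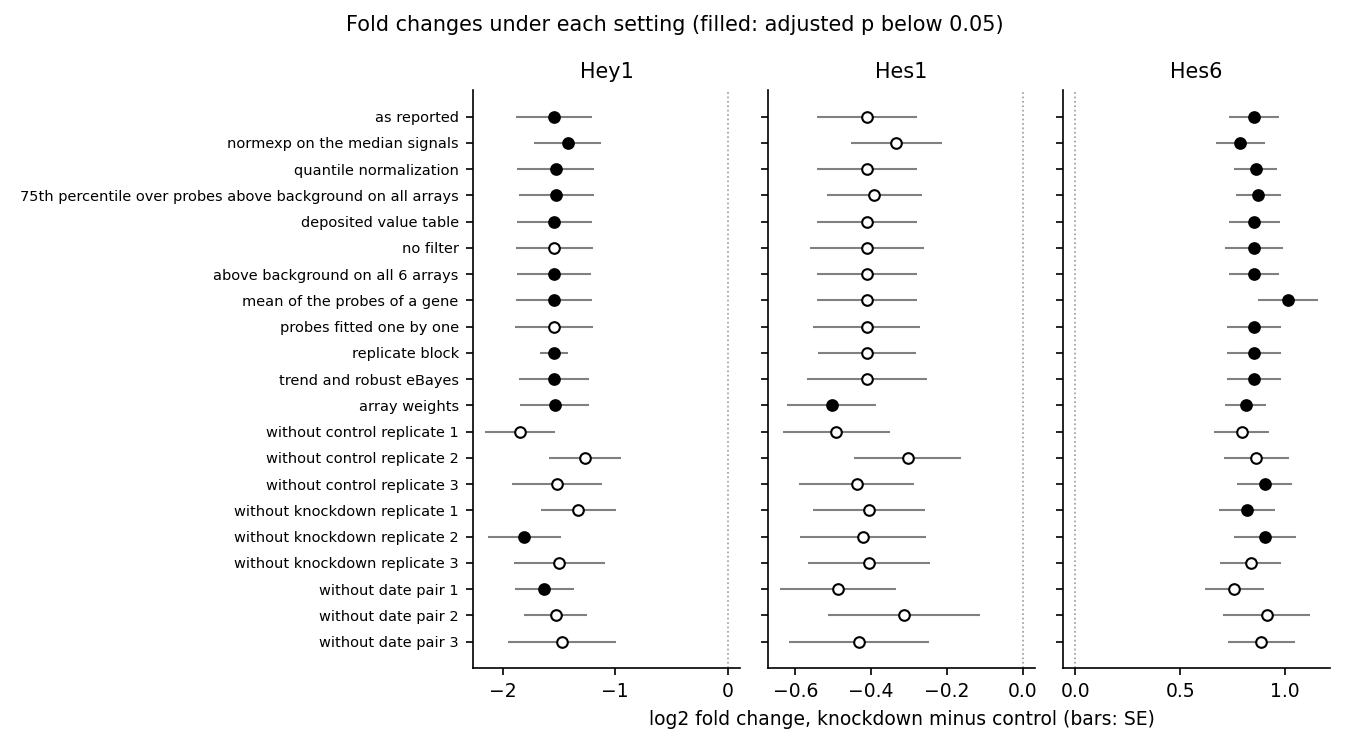
Log2 fold change, knockdown minus control, with SE bars (horizontal axes, differing between panels) of Hey1, Hes1 and Hes6 as reported and under each of 20 other settings. Filled points have a limma adjusted p below 0.05; no point crosses 0, Hey1 is filled in 11 of the 20 other settings, Hes6 in 14 and Hes1 in 1.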

How the data were processed

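Total RNA of 6 samples was labelled with Cy3 and hybridised to one-colour arrays. Per the file headers, the scanner files hold spot intensity values from Agilent Feature Extraction 11.0.1.1, whose processed signal has background removed. The deposited value table holds log2 values; set against log2 of the processed signal, 100% of probes on an array were offset by 1 constant (9.05 to 9.75, tolerance 0.01), which leaves the 75th percentile at about 0, with no centring of genes and column medians of -4.47 to -4.22. All arrays share 1 scan day.

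Outlier spots were left out, spots of a probe averaged as log2, and each array's 75th percentile over probes subtracted. Probes were named through their unversioned accession in RefSeq's gene table for GRCm38.p6 (58.3% of 56605 probes named, 0 with several symbols). A probe was kept where at least 3 of 6 arrays had it well above background (31804, of which 20917 named), and a gene was read by its brightest kept probe. Knockdown was compared with control, across all 14151 genes, by limma 3.58.1 in R 4.3.3, two-sided, with Benjamini-Hochberg adjustment, and checked on simulated data. The labels do not say that arrays of a group are separate cultures, so a p-value reflects only how these arrays vary, which may be technical. The shared dates make pairs, used only as a replicate block among the alternatives; deviations from group means of paired arrays correlated at -0.02, 0.55 and -0.20 over genes.

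The members and lists were chosen with earlier results of these data known. Named are all 7 members, Ggct, Notch1, Jun, list genes past the threshold (at most 4 per direction), the tested receptors and ligands, and the 5 nearest profiles of members that span over 1 log2 unit; other genes were named after their values were seen. Files were read with pandas 2.3.3 in Python 3.11.15, and plots drawn with matplotlib 3.10.9. Promoters are RefSeq's.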

Additional observations from a re-analysis of the deposited data

How the results depend on the processing

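The number of these genes lower past the threshold, 1 as reported (Hey1), was 0 without a filter on dim probes (adjusted p of Hey1 0.0765), 0 with probes fitted one by one (0.0765), and 0 without the arrays of date 2 (0.0705) or date 3 (0.200); it was 2 with array weights, Hes1 being added (-0.50, limma adjusted p = 0.0226). The number higher, 1 as reported (Hes6), was 0 without the arrays of date 1 (0.0536), date 2 (0.107) or date 3 (0.125). With 1 array left out both counts ran from 0 to 1, and the cause was not tested; over all genes 14 to 840 passed then, and 0, 81 and 343 without date 3, 2 and 1, against 1048. Of the other settings, normexp with an offset of 50 (chosen after seeing the data, on the median spot signal), quantile normalization, another 75th percentile, the deposited table, a stricter filter, the mean of probes, the replicate block and a trended robust fit changed neither count. The sign held in 20 of 20 settings for Hey1 (-1.85 to -1.27), Hes6 (0.76 to 1.01) and Hes1 (-0.50 to -0.30). The replicate block moved the count of all calls from 1048 to 558, with Hey1 at an adjusted p of 0.0170 and Hes6 at 0.0388. GTGGGAA in place of TGGGAA matched the same 2 promoters. Signal near background limits Hes5, Hey2, Heyl and Nrarp, for which no change can be seen.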
